A study of Mus musculus with 4 samples.

Results

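The nuclear-encoded subunits of oxidative phosphorylation complexes II to V were followed in RAW264.7 cells, a mouse macrophage line, after transcription had been stopped. Members were chosen by symbol alone: Sdha to Sdhd, Cyc1, and every symbol that begins with Uqcr, with Cox and a digit between 4 and 8, or with Atp5, apart from symbols marked as pseudogenes. The rule reads no measured value. It gave 48 of the 41324 genes in the deposited table, with 4 in complex II, 9 in complex III, 18 in complex IV and 17 in complex V. The 17 are grouped by symbol and include Atp5sl, which is not a subunit of ATP synthase.

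Cells were untreated (0 h) or exposed to actinomycin D at 10 µg/ml for 2, 4 or 6 h, and each time is represented by 1 RNA sequencing library. Actinomycin D binds DNA and blocks RNA synthesis, so the course of an mRNA shows its level relative to other mRNAs without new synthesis. All 4 libraries were made from the same line, were labelled as cytoplasmic RNA and were depleted of ribosomal RNA before a strand-keeping library preparation. Decay was not measured apart from movement of RNA between nucleus and cytoplasm. RAW264.7 is a transformed line, so the values describe this line and not primary macrophages.

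Complex II (succinate dehydrogenase) passes electrons from succinate to ubiquinone, complex III hands them on to cytochrome c, and complex IV delivers them to oxygen. Complexes III and IV pump protons across the inner mitochondrial membrane, and complex V (ATP synthase) uses their return to make ATP. Complexes III, IV and V combine subunits made from nuclear genes with a few made inside the mitochondrion, whereas complex II is wholly nuclear-encoded.

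Total gene counts lay between 12762100 (6 h) and 70289647 (4 h). Levels are given in CPM, which are counts scaled to a common library total, after normalization by the trimmed mean of M-values (TMM), which places the typical gene at no change. A member above 100% of the untreated library therefore stood higher, relative to its start, than the typical mRNA. A gain could not be told apart from a slower loss. In bulk RNA, fewer cells and less RNA per cell cannot be told apart either. Of 9 macrophage markers, 8 passed the filter on low counts and their summed level was between 3283 and 5018 CPM over the libraries, whereas 14 markers of other cell types summed to between 0.533 and 0.940 CPM, with 8 of them at 0 in every library. No time point has a replicate, and separate cultures are not mentioned in the labels, so p-values measure only the scatter of these libraries about a fitted line or curve. Intervals cover counting error only.

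Of the 48 members, 43 passed the filter of a mean of at least 1 CPM. The 5 that did not were forms of cytochrome c oxidase known from other tissues. Cox6b2, Cox7b2 and Cox8c, which are testis forms, and Cox8b, a muscle form, had 0 counts in all 4 libraries. That allows up to 3 counts in each, if reads from these genes were counted. Cox6a2, the heart and skeletal muscle form of subunit VIa, had 13, 9, 23 and 3 counts at 0, 2, 4 and 6 h. A further 4 members passed the filter at low levels, below a mean of 5 CPM, and the remaining 39 were abundant enough for their courses to be described one by one.

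Before treatment the ATP synthase catalytic subunit Atp5b stood highest, at 652 CPM per kilobase of mRNA. It was followed by its partner in the catalytic ring, Atp5a1, at 385, by the membrane-rotor subunit gene Atp5g3 at 356, and by the cytochrome c oxidase subunit Cox4i1 at 345 CPM per kilobase. In complex II the membrane anchor Sdhd was at 192 and the other anchor, Sdhc, at 25.5 CPM per kilobase. Complex III was more even, with Uqcrq highest at 173 and Uqcrb lowest at 72.1 CPM per kilobase. Levels per length depend on the gene model, most of all for Uqcrq and Atp5g1, which would be at 46.1 and 13.2 CPM per kilobase with their longest annotated transcripts. Among the lowest tested members, Atp5l, the g subunit of ATP synthase, was at 1.24 CPM per kilobase. Atp5l has 9 annotated copies of near-identical coding sequence (at least 95% identity over at least 100 bases), and the counting of reads that match several places is not described, so its value is uncertain. Such copies were found for 15 members.

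**Figure D1:**
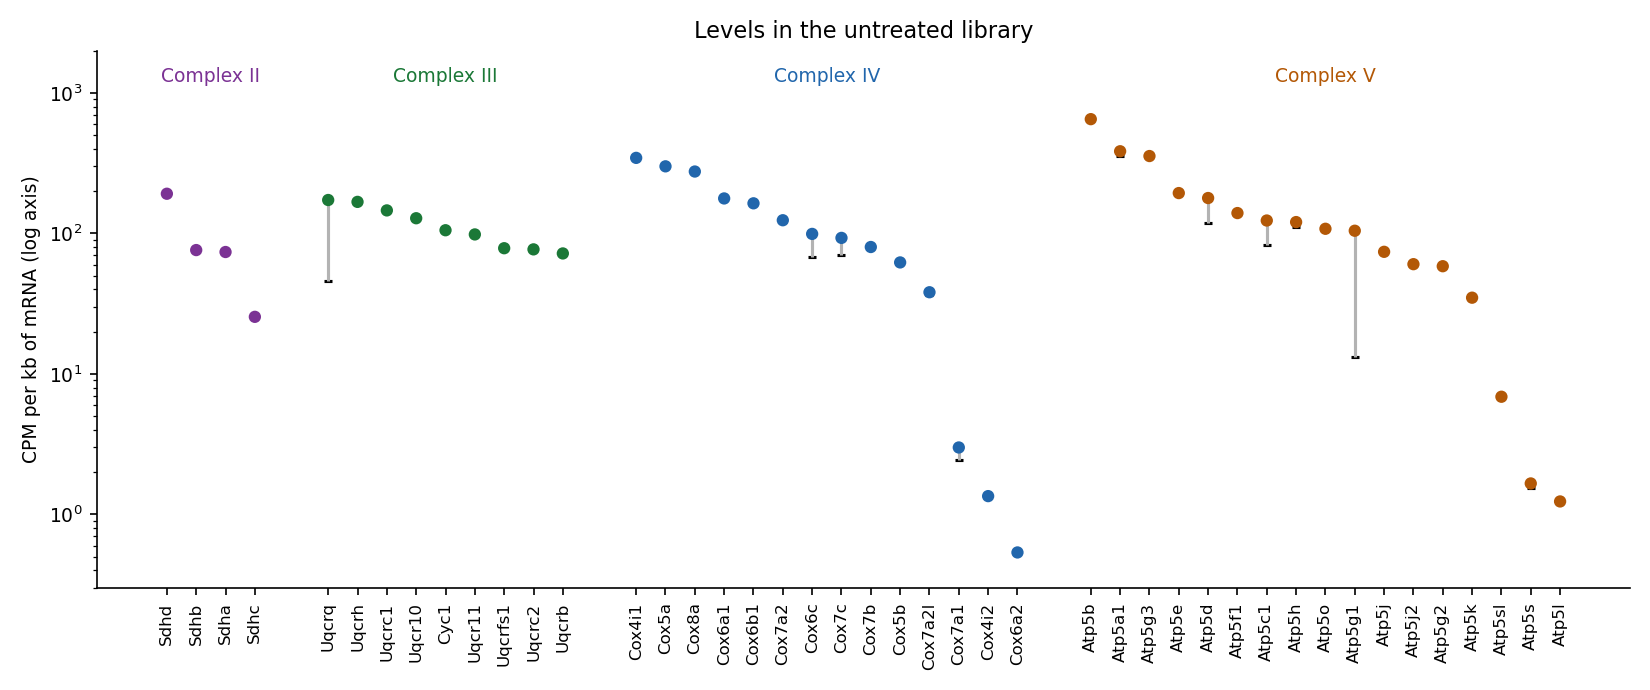
Level of each detected member in the untreated library, as CPM per kilobase of annotated mRNA on a log axis, grouped by complex and ordered within it. Points use the chosen gene model and grey lines reach to the value with the longest annotated model. Atp5b stands highest at 652, and Cox6a2 lowest at 0.536.

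After transcription was stopped, the subunit mRNAs stood higher than the typical mRNA relative to their start, and they did so together. Over all 43 tested members the median level was 120%, 127% and 126% of the untreated library at 2, 4 and 6 h, against 101%, 101% and 101% over all 10837 genes tested. The same median was 98.9% at 6 h when libraries were scaled on ribosomal protein mRNAs and 88.2% with the divisors behind the authors' deposited normalized values, so whether these mRNAs are read as above or below their starting level depended on the scaling. A scaling shifts all genes of a library alike, so by construction it hardly changes the distance between the members and the typical gene, and the member median slope exceeded that of all genes by between 0.052 and 0.054 log2 per h under the 6 scalings. That distance did depend on the libraries: it was 0.023 log2 per h without the 0 h library and 0.083 without the 6 h library.

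Most of the relative gain lay in the first 2 h. Among the 39 abundant members the median step was 0.27 log2 between 0 and 2 h, 0.090 between 2 and 4 h and −0.0097 between 4 and 6 h with TMM scaling. The step was upward for 37, 34 and 18 of the 39. Over all genes tested the median steps were 0.010, −0.0013 and 0.0012 log2. The first and last steps share no library, and their Spearman correlation across the 39 members was 0.257. At 6 h the 39 lay between 78.6% and 161% of untreated. Their counting interval was wholly above 100% for 36, wholly below for 1 (Atp5sl) and across 100% for 2. Such intervals were not counted over all genes. Without regard to intervals, 40 of the 43 tested members and 5462 of all 10837 genes lay above 100% at 6 h. The SD of the log2 changes of the 39 at 6 h was 0.213, against 0.814 over the 8995 genes with a mean of at least 5 CPM. These genes were not matched to the members in abundance.

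**Figure D2:**
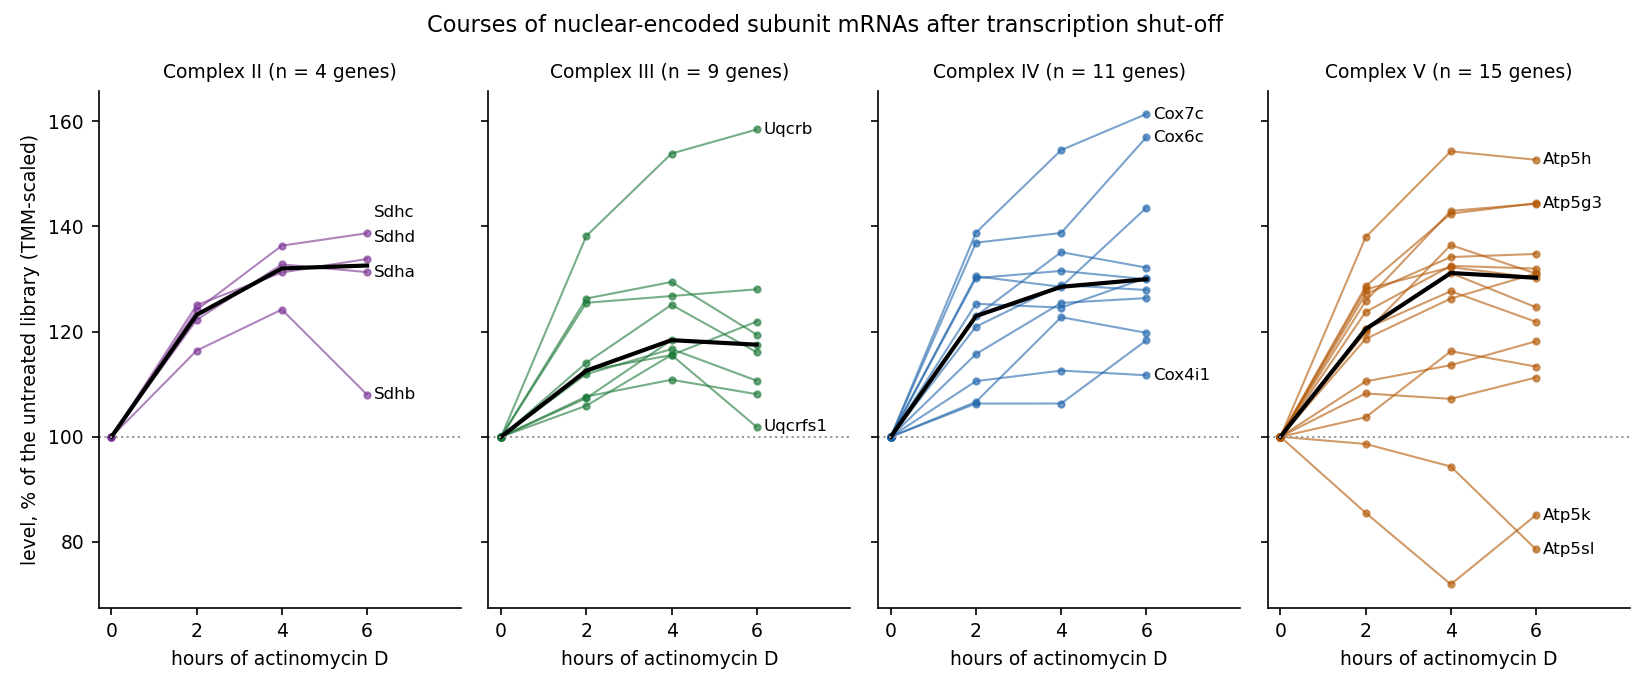
TMM-scaled level of the 39 abundant members as percent of the untreated library against hours of actinomycin D, with 1 panel per complex, 1 coloured line per gene and the panel median in black. Most lines climb by 2 h and then flatten, Cox7c ends highest at 161%, and Atp5k and Atp5sl lie below 100%. The median of the tested members at 6 h is 98.9% with ribosomal protein scaling and 88.2% with the deposited divisors, below the dotted line at 100%.

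A straight line over the 4 times was tested in edgeR, two-sided, with Benjamini-Hochberg adjustment over all 10837 genes. Of the 43 members 3 rose, beside a background of 8.63% of all genes, and 0 fell, beside 17.2%. At this adjusted threshold, rises were no more frequent among the members than over all genes. At an unadjusted p under 0.05, 21 members rose and 0 fell, while 20.6% of all genes rose and 26.7% fell, and DESeq2's Wald test called 20 rising and 0 falling (background 14.1% and 20%). With TMM, slopes were positive for 40 of the 43 members and for 5482 of all 10837 genes. The member median was 0.055 log2 per h, against 0.0014 over all genes. That median turned to −0.0036 with ribosomal protein scaling and −0.033 with the deposited divisors. It was 0.023 without the 0 h library, with 35 of 43 slopes positive, against a median of 0.00040 over all genes. Without the 6 h library it was 0.087, against 0.0042 over all genes.

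The test of a bend, the quadratic term beside the line, addressed the shape of the courses. A bend was called for 23 members by edgeR at an adjusted p under 0.05, beside 31.1% of all genes. All 23 were downward, meaning a rise that flattens or turns back, and 0 were upward, beside 19% of all genes, whereas 1312 of the 10837 genes bent downward and 2056 upward. At an unadjusted p under 0.05, 28 members bent downward and 1 upward, while 19.5% of all genes bent downward and 23.6% upward. Tested jointly for line and bend, 36 members were higher at 6 h and 2 were lower, beside 32.9% and 36.7% of all genes. The 5 that passed neither way were Atp5j2, a small membrane subunit of ATP synthase, and the low-count Cox4i2, Cox7a1, Atp5l and Atp5s. Downward bends numbered 2 with ribosomal protein scaling (1.08% of all genes) and 1 with the deposited divisors (0.655% of all genes), so the bend is a departure from the typical gene and not a shape free of scaling.

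The 3 members that rose along the line were Cox7c, Cox6c and Atp5g3. Cox7c, a small membrane subunit of cytochrome c oxidase on chromosome 13 from 86044816 to 86046904 (GRCm38), had 58.9, 81.8, 91.1 and 95.1 CPM at 0, 2, 4 and 6 h. Each library stood above the one before it. It ended at 161% of untreated (95% counting interval 150 to 174%), with a slope of 0.11 ± 0.026 log2 per h (SE, edgeR adjusted p = 0.0462). Cox6c, another small membrane subunit of the same enzyme on chromosome 15 from 35925886 to 35938246, had 58.6, 80.3, 81.3 and 92.0 CPM. Its gain came in the first and last steps, to 157% (146 to 169%), with a slope of 0.098 ± 0.024 (edgeR adjusted p = 0.0498). Atp5g3, on chromosome 2, had 298, 375, 426 and 430 CPM. It ended at 144% (139 to 149%), with a slope of 0.089 ± 0.021 (edgeR adjusted p = 0.0448).

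These 3 calls were close to the threshold. All 3 missed it without the untreated library (edgeR adjusted p = 0.0797 for Cox7c, 0.124 for Cox6c and 0.101 for Atp5g3) and without the 4 h library (0.120 for Cox7c, 0.129 for Cox6c and 0.122 for Atp5g3). Cox6c also missed it without the 6 h library (adjusted p = 0.0677). With 1 library left out, the number of rising members was 0 without 0 h (background 7.04%), 6 without 2 h (4.13%), 0 without 4 h (0.313%) and 20 without 6 h (11.9%), and 0 fell each time (15.4%, 18.3%, 3.68% and 21.7%). At an unadjusted p under 0.05, 4 members rose without the 0 h library (13.2% of all genes) and 20 without the 2 h library (14.6%). Without the 4 h library 8 rose (9.27%). Without the 6 h library 30 rose (20.8%) and 1 fell (28.7%). Altogether 8 members had an edgeR adjusted p under 0.06, the other 5 being Sdhc, Uqcrb, Cox8a, Atp5e and Atp5j. Cox7c has 3 near-identical annotated copies and Cox6c has 2, whereas none was found for Atp5g3. Cox6c also overlaps Vps13b on the opposite strand over 5344 bases, and whether counting used the strand is not stated in the labels. Opposite-strand neighbours are annotated for 14 members. Among them are Atp5j with Gabpa (701 bases), Atp5f1 with Wdr77 (731 bases) and Cox4i1 with Emc8 (352 bases). Cox4i1 is also overlapped on its own strand by the protein-coding gene Gm20388, over 5986 bases. How reads from that shared stretch were counted is not stated, so the Cox4i1 values carry this uncertainty.

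In complex II all 4 mRNAs bent downward and none passed the line test. Sdha, the flavoprotein that oxidizes succinate, had 251, 307, 333 and 330 CPM at 0, 2, 4 and 6 h, which is 131% at the end (bend, edgeR adjusted p = 0.00724). Sdhd, a membrane anchor, followed the same course with 277, 346, 364 and 371 CPM (134%, adjusted p = 0.0135). Sdhc, the other anchor, had 94.9, 118, 129 and 132 CPM (139%, adjusted p = 0.0158), the highest relative level of the complex. All 3 therefore gained by 4 h and held that level.

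Sdhb, the iron-sulfur subunit that carries electrons between the flavin and the anchors, had 102, 119, 127 and 110 CPM. Its level was 124% of untreated at 4 h (counting interval 119 to 129%) and 108% at 6 h (101 to 115%; bend, edgeR adjusted p = 0.00407). Both intervals lay below those of Sdhc, which were 131 to 142% at 4 h and 130 to 148% at 6 h. The ratio of Sdhc to Sdhb counts, a pair chosen after its values were seen, was 0.929, 0.991, 1.02 and 1.19 at 0, 2, 4 and 6 h. Its intervals were 0.883 to 0.978, 0.953 to 1.03, 0.992 to 1.05 and 1.11 to 1.28 at the same times, so those at 4 and 6 h did not overlap the untreated one.

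Complex III had the lowest median level of the 4 complexes with TMM scaling, 118% at 6 h against 133% in complex II, 128% in complex IV and 130% in complex V. Uqcrb, a small subunit linked to ubiquinone binding, stood apart on the high side, with 45.3, 62.5, 69.6 and 71.7 CPM at 0, 2, 4 and 6 h. It ended at 158% (145 to 173%; line, edgeR adjusted p = 0.0518; bend, 0.00891) and has 3 near-identical annotated copies. At the low end was Uqcrfs1, the Rieske iron-sulfur protein, with 126, 133, 145 and 128 CPM and 102% at 6 h (96.0 to 108%; bend, edgeR adjusted p = 0.0466). Cyc1, the cytochrome c1 haem protein, was nearly level at 188, 203, 209 and 203 CPM (108%, bend adjusted p = 0.12).

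The remaining downward bends of the complex were in its core proteins and its hinge protein. Uqcrc1 had 283, 323, 354 and 329 CPM (116% at 6 h; bend, edgeR adjusted p = 0.0118) and Uqcrc2 had 171, 215, 217 and 220 CPM (128%; 0.0179). Uqcrh, the hinge protein that assists the contact with cytochrome c, had 108, 136, 139 and 129 CPM (119%; 0.00246). The small subunits Uqcrq, Uqcr10 and Uqcr11 passed neither the line nor the bend test and stood at 122%, 111% and 118%.

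The share of complex III in all member counts was 15.3%, 14.7%, 14.5% and 14.1% at 0, 2, 4 and 6 h (exact binomial 95% interval 13.9 to 14.3% at 6 h and 15.2 to 15.5% in the untreated library). That share is free of library scaling. Complex V held 56.0%, 56.7%, 57.2% and 57.0%, while complex IV stayed between 18.2% and 18.8% and complex II between 9.92% and 10.1%.

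In complex IV the tissue-wide forms followed the general course and the tissue-restricted forms were rare. Cox4i1, the most abundant subunit by CPM, had 302, 334, 340 and 337 CPM at 0, 2, 4 and 6 h (112% at 6 h, 108 to 116%) and had the lowest slope of the abundant complex IV members. Its lung-enriched relative Cox4i2 had 35, 41, 92 and 17 counts, between 0.00284 and 0.00413 of the Cox4i1 count in each library. Downward bends were called for Cox5a, Cox6b1, Cox7a2l, Cox8a and Cox7c.

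Cox5a, on the matrix side of the enzyme, had 228, 280, 307 and 301 CPM (132%; bend, edgeR adjusted p = 0.00518). Cox6b1, on the side of cytochrome c, had 119, 144, 153 and 152 CPM (128%; 0.0144). Cox8a, a small membrane subunit, had 178, 206, 224 and 225 CPM (126%; 0.0418), and its relatives Cox8b and Cox8c had no counts.

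Within subunit VIIa, Cox7a2 had 96.1, 125, 123 and 138 CPM (144%) and passed neither the line nor the bend test. Cox7a2l, a relative linked to supercomplexes of complexes III and IV, had 48.2, 62.7, 63.4 and 62.6 CPM (130%; bend, edgeR adjusted p = 0.0175). The count ratio of Cox7a2 to Cox7a2l stayed between 1.95 and 2.20 in the 4 libraries. The muscle form Cox7a1 had 42, 55, 98 and 11 counts, or between 0.00653 and 0.0144 of Cox7a2.

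Cox6a1, the tissue-wide form of subunit VIa, had 119, 127, 146 and 143 CPM (120%). Cox7b had 94.1, 118, 117 and 123 CPM (130%) and Cox5b, a zinc-binding subunit, had 63.1, 67.1, 67.1 and 74.7 CPM (118%). None of these 3 passed the line or the bend test, although their counting intervals at 6 h lay above 100% with TMM scaling.

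In complex V the 2 members highest per kilobase before treatment form the catalytic ring of the rotary machine. Atp5b, the catalytic beta subunit, had 1465, 1813, 1941 and 1934 CPM at 0, 2, 4 and 6 h (132% at 6 h; bend, edgeR adjusted p = 0.015), and Atp5a1, the alpha subunit, had 1116, 1345, 1464 and 1391 CPM (125%; 0.00759). Atp5c1, the gamma subunit that forms the central shaft, had 169, 215, 227 and 228 CPM (135%; 0.00788). At 4 h they stood at 133% (Atp5b), 131% (Atp5a1) and 134% (Atp5c1). At 6 h the interval of Atp5a1, 122 to 127%, lay below those of Atp5b, 130 to 134%, and Atp5c1, 129 to 141%.

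Parts of the peripheral stalk, which holds the head still, also had downward bends. Atp5f1, the b subunit, had 263, 337, 348 and 343 CPM (130%; bend, edgeR adjusted p = 0.00542). Atp5o, the subunit that fixes the stalk to the head, had 106, 128, 136 and 129 CPM (122%; 0.00765). Atp5j, coupling factor 6, had 70.3, 90.4, 100.1 and 102 CPM (144%; 0.0105).

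Atp5h, the d subunit of the stalk, was the highest of the abundant complex V members, with 88.4, 122, 136 and 135 CPM. It ended at 153% (144 to 162%; line, edgeR adjusted p = 0.0655; bend, 0.00183), and it has 4 near-identical annotated copies. The central stalk subunits Atp5d and Atp5e stood at 113% and 131% at 6 h and the small membrane subunit Atp5j2 at 111%, with no call on line or bend.

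Both abundant members that lay below their starting level belonged to the Atp5 symbols. Atp5k, the e subunit found where ATP synthase dimers meet, had 15.2, 13.0, 10.9 and 12.9 CPM at 0, 2, 4 and 6 h. It was lowest at 4 h and ended at 85.1% (70.6 to 102%; joint test, edgeR adjusted p = 0.0444; line, 0.335). Atp5sl had 19.3, 19.0, 18.2 and 15.1 CPM, ending at 78.6% (66.2 to 92.9%; joint test, edgeR adjusted p = 0.0426; line, 0.158). Despite its symbol, Atp5sl is not a subunit of ATP synthase: its product, also named DMAC2, takes part in the assembly of complex I. Atp5s, or coupling factor B, was rare, with 88, 127, 236 and 43 counts.

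**Figure D3:**
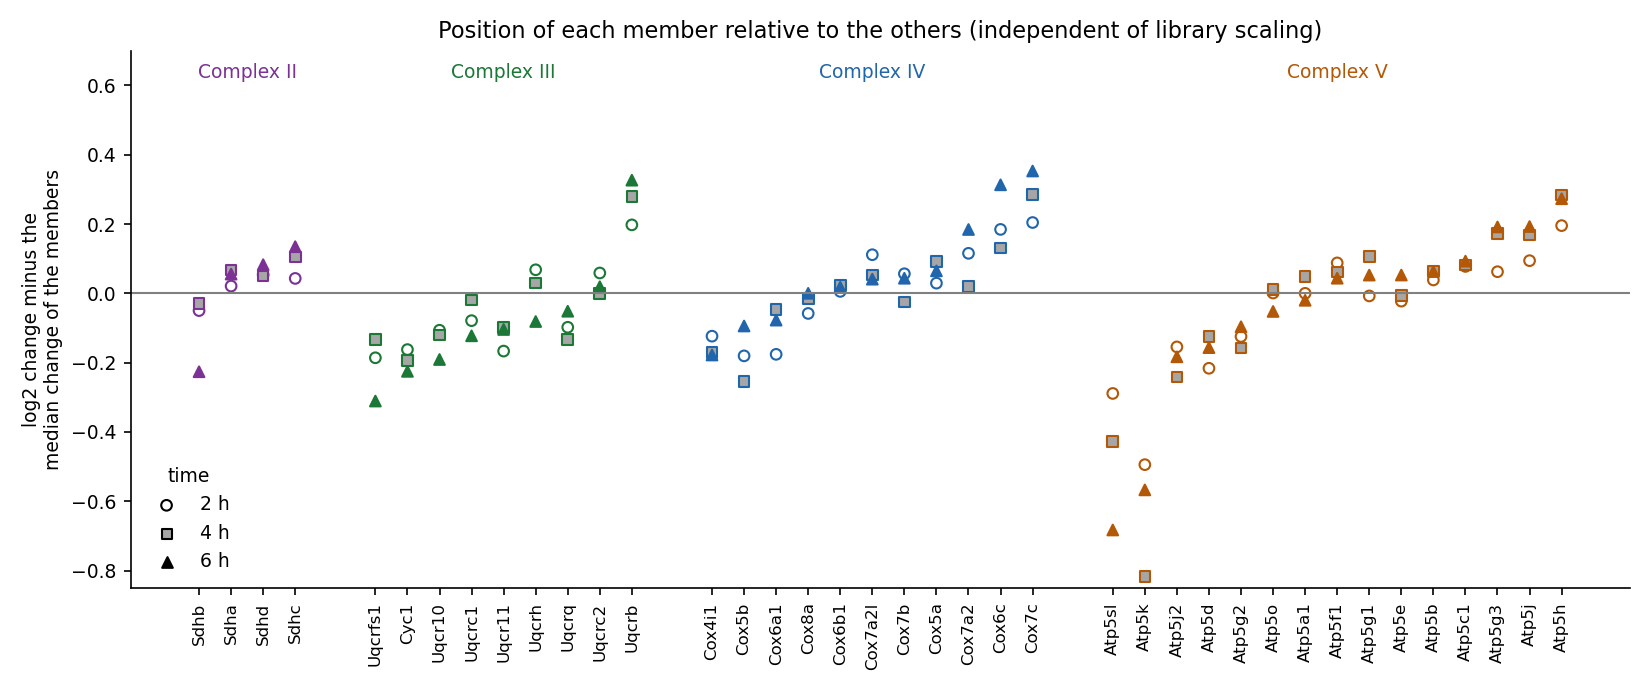
Log2 change of each abundant member since 0 h minus the median change of the tested members at the same time, with open circles for 2 h, grey squares for 4 h and filled triangles for 6 h. Values are independent of library scaling. Uqcrb, Cox7c and Atp5h are among the 4 highest members at each time, and Atp5k and Atp5sl are the 2 lowest.

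Relative to one another the subunit mRNAs stayed close. Of the 39 abundant members 37, 33 and 32 lay within 0.25 log2 of the member median at 2, 4 and 6 h. Counts of 2 members in the same library give ratios that no scaling can alter, and the pairs below from within 1 complex were chosen after their values were seen. The ratio of Cox7c to Cox4i1 was 0.195, 0.245, 0.268 and 0.282 at 0, 2, 4 and 6 h, and that of Uqcrb to Cyc1 was 0.241, 0.309, 0.334 and 0.353. Atp5h over Atp5d was 0.453, 0.602, 0.601 and 0.610, and Cox6c over Cox5b was 0.928, 1.20, 1.21 and 1.23. In these 4 pairs the counting intervals of the treated libraries did not overlap that of the untreated library. In the opposite direction, Atp5k over Atp5e was 0.159, 0.114, 0.0903 and 0.103.

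The following pairs were taken for their roles. Uqcrc2 over Uqcrc1, the 2 core proteins of complex III, was 0.606, 0.666, 0.614 and 0.668. Cox5a over Cox5b was 3.60, 4.17, 4.58 and 4.02. Both moved up and down between libraries, and neither kept 1 direction.

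**Figure D4:**
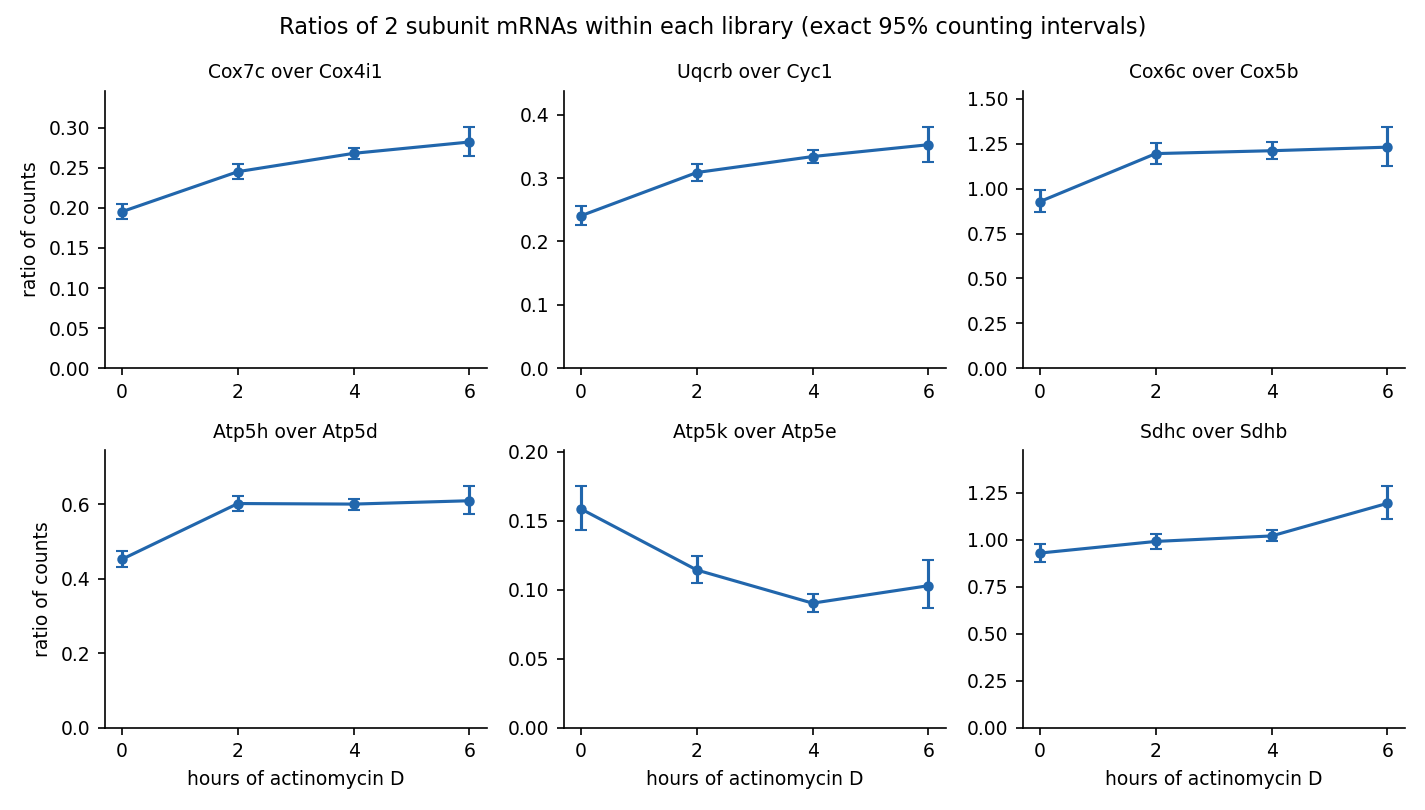
Ratio of counts of 2 subunit mRNAs of the same complex in each library against hours of actinomycin D, with exact 95% counting intervals and axes that start at 0. Cox7c over Cox4i1 and Uqcrb over Cyc1 are higher in each later library, and Atp5k over Atp5e is lower in all 3 treated libraries than in the untreated one.

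Subunit c, the ring that turns in the membrane as protons pass, is made from 3 nuclear genes, Atp5g1, Atp5g2 and Atp5g3, whose products differ in the import signal and share the mature protein. The stretch of coding sequence below shows how far reads from these genes can be told apart. It is the last 237 coding bases of each, which encode 78 residues identical in all 3 genes and the stop codon, read from the GENCODE M21 transcripts (GRCm38) and written 5′ to 3′, with capitals at the 64 positions where at least 1 gene differs. Atp5g1 lies at chr11:96068852-96075670, Atp5g2 at chr15:102662864-102672352 and Atp5g3 at chr2:73908447-73911326, all on the minus strand.
Atp5g1: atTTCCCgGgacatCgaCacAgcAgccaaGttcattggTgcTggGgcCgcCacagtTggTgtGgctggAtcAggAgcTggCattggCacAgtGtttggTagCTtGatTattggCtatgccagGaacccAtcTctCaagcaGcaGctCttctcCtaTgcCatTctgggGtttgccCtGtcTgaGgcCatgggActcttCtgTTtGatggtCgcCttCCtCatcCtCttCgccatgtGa
Atp5g2: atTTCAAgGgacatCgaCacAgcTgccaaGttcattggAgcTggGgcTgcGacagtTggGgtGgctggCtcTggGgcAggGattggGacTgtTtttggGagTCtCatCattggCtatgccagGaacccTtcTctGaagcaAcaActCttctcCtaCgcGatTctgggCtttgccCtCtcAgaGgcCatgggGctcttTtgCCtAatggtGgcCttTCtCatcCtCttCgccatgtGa
Atp5g3: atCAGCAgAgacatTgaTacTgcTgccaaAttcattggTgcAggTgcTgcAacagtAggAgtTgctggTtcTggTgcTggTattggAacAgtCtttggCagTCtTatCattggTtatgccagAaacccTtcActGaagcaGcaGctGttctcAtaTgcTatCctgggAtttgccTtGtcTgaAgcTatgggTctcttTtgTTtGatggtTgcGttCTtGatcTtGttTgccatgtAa
Although the encoded residues are the same, Atp5g3 matches Atp5g1 at 78.5% and Atp5g2 at 77.2% of these bases, with no shared run longer than 11 bases. Atp5g1 and Atp5g2 match at 84.8%, with a longest shared run of 21 bases. Reads from the 3 genes therefore differ in many places along this stretch. Processed copies of Atp5g1 (1 copy) and Atp5g2 (2 copies) are a separate source of uncertainty.

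Atp5g3 supplied most of the subunit c mRNA and its share grew. It made up 70.7%, 72.4%, 73.1% and 73.5% of the counts of the 3 genes at 0, 2, 4 and 6 h, with intervals of 72.5 to 74.5% at 6 h and 69.9 to 71.5% in the untreated library. Atp5g1 held 17.4%, 16.9%, 17.1% and 16.4%, and Atp5g2 held 11.9%, 10.7%, 9.77% and 10.1%. The gain of Atp5g3 was mainly against Atp5g2.

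In CPM, Atp5g1 had 73.1, 87.7, 99.8 and 95.9 (131% at 6 h; bend, edgeR adjusted p = 0.0166) and Atp5g2 had 50.2, 55.4, 57.0 and 59.3 (118%, no call). The count ratio of Atp5g3 to Atp5g2 was 5.94, 6.77, 7.48 and 7.26, and that of Atp5g3 to Atp5g1 was 4.08, 4.28, 4.27 and 4.49. The interval of the second ratio was 4.21 to 4.79 at 6 h and 3.89 to 4.27 in the untreated library, so these overlap.

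The level of the members as a whole rested on the choice of scaling. Their summed counts were 0.871%, 1.05%, 1.09% and 1.05% of all counts without the rRNA-like genes at 0, 2, 4 and 6 h. The number called rising was 7 with DESeq2 size factors (background 9.59%), 0 with total counts (1.91%), 0 with total counts lacking the rRNA-like genes (3.08%) and 0 with ribosomal protein scaling (1.25%). At an unadjusted p under 0.05, 0 members rose and 0 fell with total counts, beside 4.21% and 17.8% of all genes. Without the rRNA-like genes 8 rose and 0 fell (11.5% and 30.7% of all genes), and with ribosomal protein scaling 3 rose and 6 fell (3.64% and 42.2%). Ribosomal protein scaling called 1 member falling, Atp5sl (background 23.9%). With the divisors behind the deposited normalized values, 0 rose (background 0.72%) and 12 of 43 fell, beside 46.5% of all genes, among them Cyc1, Uqcrfs1, Sdhb and Cox4i1. At an unadjusted p under 0.05, 0 then rose and 20 fell (1.25% and 59.3% of all genes). Relative to TMM, the median gene shifted over 6 h by −0.0049 log2 (DESeq2 factors), 0.13 (total counts), −0.090 (without rRNA-like genes), −0.35 (ribosomal proteins) and −0.52 (deposited divisors).

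**Figure D5:**
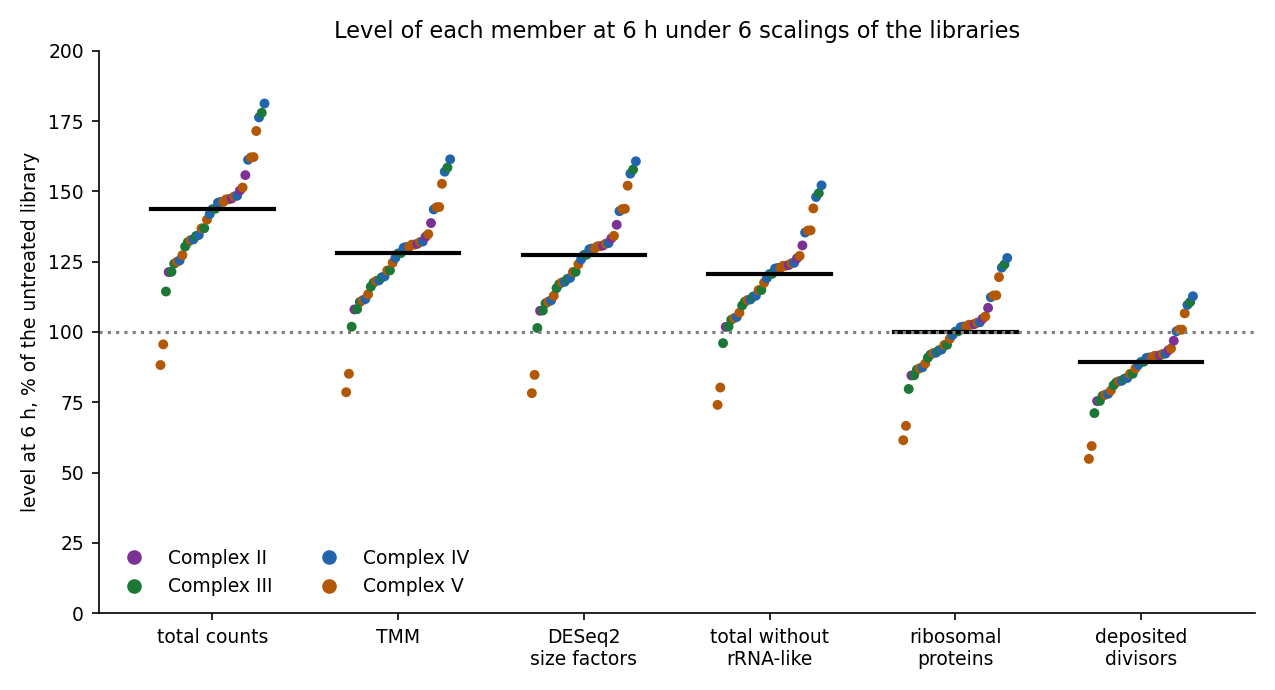
Level of each of the 39 abundant members at 6 h as percent of the untreated library under 6 scalings, with each point 1 gene coloured by complex and black bars at the median of these 39. The order of the genes is the same in every column, while the median of all tested members moves between 142% with total counts and 88.2% with the deposited divisors and crosses 100% with ribosomal protein scaling (98.9%).

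The authors' deposited table also gives a half-life per gene, which for all 14957 genes that have one equals, within 1%, a logarithmic line through the untreated value fitted to the 0, 2 and 4 h values. The same line with the 6 h value included gives the deposited number for only 200 of these genes. Of the 43 tested members, the authors' deposited table gives 4 a half-life under 10 h, 12 one of 10 to 24 h, 20 one over 24 h, and 7 a negative one, meaning a value that grew. A half-life under 10 h was given to 9.30% of these members, against 55.0% of all tested genes in the authors' deposited table. The shortest among abundant members in the authors' deposited table were 4.19 h for Atp5k and 7.14 h for Atp5sl, both also the lowest by TMM scaling. For Sdhc the authors' deposited table gives 1446 h at a fit of R2 = 0.00847, and the line refitted to all 4 times gives 194 h, so half-lives of this size are not determined by the data.

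The members share short mRNAs. Their median annotated mRNA was 745 bases, against 2866 over the 9781 tested genes with a gene model. The median coding length was 426 bases in the members and 1386 over all tested genes, and the median 3′ UTR was 175 bases in the members and 902 over all tested genes. An mRNA under 1000 bases was annotated for 27 of 43 members (62.8%) and for 6.52% of all tested genes. The median slope of the 638 tested genes with an mRNA under 1000 bases was 0.040 log2 per h, against 0.055 for the members and 0.00018 for all tested genes with a model. Within the members, slope and coding length had a Spearman correlation of −0.115 (n = 43), and over all genes −0.195 (n = 9781). The part of mRNA length in the members' courses was not tested.

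Motifs known from regulated decay were counted in the annotated 3′ UTRs. The AU-rich pentamer AUUUA was present in 17 members (39.5%), against 64.8% of all tested genes and 21.6% of those with an mRNA under 1000 bases. The Pumilio motif TGTANATA was present in 1 member, Cox7c (2.33%), against 23.5% of all tested genes and 4.23% of the short ones. Shorter UTRs hold fewer matches by their length alone, so both shares move with UTR length.

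Promoter windows from RefSeq (GRCm38.p6, 250 bases before the start of the gene and 50 after it) were matched to 37 of the 48 members, 34 of them tested. Both strands were searched for motifs of factors known to drive respiratory chain genes: the NRF1 motif, written as GCGC, any 2 bases and GCGC again, the ETS motif CCGGAAG bound by GABP, and the YY1 motif, AAGATGG followed directly by CGGC. The NRF1 motif was in 10 of the 34 (29.4%), against 16.8% of 7801 tested genes with a window and 7.0% of all 27025 genes with a window. The ETS motif was in 12 (35.3%), against 22.6% of the tested genes and 9.93% of all genes with a window. The YY1 motif was in 1, Atp5sl (2.94%), against 2.18% of the tested genes and 0.755% of all genes with a window. Any of the 3 was in 19 (55.9%), against 37.0% of the tested genes and 16.0% of all genes with a window.

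The windows of Atp5g3, which rose along the line, and of Atp5h, the highest abundant member of complex V, are shown 5′ to 3′ on the minus strand (chr2:73911277-73911576 and chr11:115419870-115420169, RefSeq, GRCm38.p6) because they carry these motifs. Capitals mark the matches: 1 NRF1 motif in Atp5g3, and 1 NRF1 and 1 ETS motif on the other strand in Atp5h.
Atp5g3: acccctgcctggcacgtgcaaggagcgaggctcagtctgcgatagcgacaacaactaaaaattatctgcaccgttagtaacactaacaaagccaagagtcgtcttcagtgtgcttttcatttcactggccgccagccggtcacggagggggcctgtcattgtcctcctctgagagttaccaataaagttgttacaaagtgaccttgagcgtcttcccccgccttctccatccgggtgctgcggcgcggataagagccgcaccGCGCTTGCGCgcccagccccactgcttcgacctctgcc
Atp5h: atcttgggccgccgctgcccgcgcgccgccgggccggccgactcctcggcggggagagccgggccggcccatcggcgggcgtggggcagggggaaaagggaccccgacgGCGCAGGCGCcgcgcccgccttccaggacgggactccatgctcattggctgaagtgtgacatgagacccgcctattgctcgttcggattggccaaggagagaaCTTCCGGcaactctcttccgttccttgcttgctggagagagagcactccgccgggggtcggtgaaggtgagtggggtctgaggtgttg
Matches were not confined to members that ended high. Atp5k, at 85.1% of untreated at 6 h, also had 1 NRF1 and 1 ETS match. Cox7c, which rose along the line, had 0 matches to any of the motifs, and no window was matched to Cox6c. A relation between motifs and courses was not tested. A match of letters is not a measured binding site, and transcription was blocked in the treated cells.

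The other genes of the pathway were taken as lists of partners, assembly factors and regulators. Of 10 tested regulators of the chain, 0 rose and 3 fell on the line by edgeR (2 and 6 at an unadjusted p under 0.05, beside 20.6% and 26.7% of all genes; 8.63% of all genes rose and 17.2% fell), with a median of 64.5% of untreated at 6 h with TMM scaling. Nrf1, a transcription factor of respiratory chain genes, stood at 36.1%, 23.1% and 20.9% of untreated at 2, 4 and 6 h (edgeR adjusted p = 0.032). Pprc1, a coactivator of that program, fell to 16.7% (adjusted p = 0.0417), and Gabpb1, a subunit of GABP, fell to 52.3% (0.0201), whereas its partner Gabpa was at 120% with no call. Tfb2m, a mitochondrial transcription factor, stood at 147% with no call (adjusted p = 0.0803).

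Of 35 tested assembly factors of complexes II to V, 2 rose and 3 fell, beside 8.63% and 17.2% of all genes, with a median of 102% at 6 h with TMM scaling. At an unadjusted p under 0.05, 6 rose and 9 fell (20.6% and 26.7% of all genes). Cox10, which makes a precursor of the haem of complex IV, fell to 56.5% (edgeR adjusted p = 0.0266), and Coa7, another assembly factor of that complex, fell to 25.6% (0.0179). Tmem70, which helps to assemble ATP synthase, fell to 58.9% (adjusted p = 0.023). The rises were in Cox15, a haem-modifying enzyme, at 124% (0.0481), and in Coa5 at 131% (0.0387).

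Partners made inside the mitochondrion did not share 1 course. Cytochrome b mRNA, mt-Cytb, fell to 32.6% (edgeR adjusted p = 0.0223), whereas the cytochrome c oxidase subunit mt-Co1 was at 157% with no call (0.0563). The mRNAs mt-Co2, mt-Co3, mt-Atp6 and mt-Atp8 are listed at 0 in all 4 libraries. In the same libraries mt-Co1 had 50013, 78941, 208536 and 31626 counts at 0, 2, 4 and 6 h. Why the others are listed at 0 was not tested, so their zeros do not show that these mRNAs were absent. Cytochrome c itself, Cycs, stood at 164% (adjusted p = 0.099) and the ATP synthase inhibitor Atpif1 at 128% (0.0534).

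For comparison, genes were grouped as complex I by symbol alone (Ndufa, Ndufb, Ndufc, Ndufs or Ndufv). Whether each product, Ndufa4 among them, belongs to complex I was not checked. The 37 tested had 0 rises and 0 falls on the line by edgeR, beside 8.63% and 17.2% of all genes. At an unadjusted p under 0.05, 10 rose and 0 fell, beside 20.6% and 26.7% of all genes. They had 21 downward bends, beside 1312 of all 10837 genes, and a median of 120% at 6 h with TMM scaling, beside 126% for the members of complexes II to V. The difference between these lists was not tested.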

How the data were processed

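RNA from RAW264.7 macrophages was sequenced at 0, 2, 4 and 6 h of actinomycin D, with 1 library per time (4 libraries), placed by the treatment in the labels. The submitters' processing notes name featureCounts, Subread 1.6.3, STAR 2.5.3a and the mm10 build, with no roles or order. Which annotation was used, whether counting was stranded, and how reads matching several places were treated is not given in the sources. The deposited whole-number counts, raw per the file headers, entered the tests unchanged. The authors' normalized signal columns equal these counts divided by 1 whole number per library (1300, 2250, 4476 and 748). The half-life and R2 columns of the authors' deposited table were treated as a score. Columns matched to no sample numbered 0.

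Slopes, bends and joint terms were fitted over all genes with a mean of at least 1 CPM using edgeR 4.0.16 (R 4.3.3), TMM factors and the quasi-likelihood test, with Benjamini-Hochberg adjustment over 10837 genes and a threshold of 0.05. The line left 2 residual degrees of freedom and the bend 1. Log2 changes used a prior count of 0.5, and intervals were exact binomial at 95%. DESeq2 1.42.0 was an alternative. Near-identical copies were found with BLAST 2.17.0. Gene models were those of GENCODE M21.

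Values per library are given for members past the line or bend test, the most abundant and the lowest and highest slopes of each complex, and the isoform groups. The set of genes and the lists were proposed with earlier results of these data known, although the rule that picks the members reads symbols alone.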

Additional observations from a re-analysis of the deposited data

How the results depend on the processing

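The count of members rising along the line, 3 with TMM and edgeR, was 7 with DESeq2 size factors and 7 with a minimum of 5 CPM, and 20 with DESeq2's Wald test. It was 0 with total counts (1.91%), 0 without the rRNA-like genes (3.08%) and 0 with ribosomal protein scaling (1.25%). With the deposited divisors it was 0 (0.72%), and with no filter on low counts 0 (3.01%). At an unadjusted p under 0.05, 21 members rose with no filter, beside 13.5% of all genes. The joint test gave 36 higher (32.9%) and 2 lower (36.7%). An older estimate of quasi-dispersion, chosen after seeing the data, gave 2 rising (8.03%). Leaving out 1 library at a time gave between 0 and 20, lowest without the 0 h or the 4 h library and highest without the 6 h library. The count falling, 0 with TMM (17.2%), was 1 with ribosomal protein scaling (23.9%) and 12 with the deposited divisors (46.5%). It was 0 with each library left out. The median slope of 0.055 reversed to −0.0036 and −0.033 under those scalings, and lay between 0.023 and 0.087 with 1 library left out. Downward bends, 23 with TMM, numbered 37 with total counts (45.4% of all genes), 2 with ribosomal protein scaling (1.08%) and 1 with the deposited divisors (0.655%), and upward bends 2 and 2 under the last pair. The median level at 6 h, 126%, was 128% with a prior count of 2, 142% with total counts, 98.9% with ribosomal protein scaling and 88.3% with the deposited divisors. Under the deposited divisors 10 slopes turned negative with a call: −0.065 (Sdhb), −0.048 (Uqcrc1), −0.076 (Uqcrfs1), −0.068 (Cyc1), −0.062 (Uqcr10), −0.062 (Cox4i1), −0.030 (Cox8a), −0.052 (Atp5d), −0.064 (Atp5j2) and −0.040 (Atp5o). Of the other alternative values for single members, 422 kept sign and side of the threshold, 51 changed sign with no call on either side (23 with the deposited divisors, 22 with ribosomal protein scaling), 49 newly passed it and 23 no longer did. Scalings differ by construction in their divisors, and the cause of the other differences was not tested.

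No paired analysis was possible because each time has 1 library and the labels give no shared replicate numbers. The 6 h library, with 12762100 counts, carries the widest counting intervals. At 6 h Cox4i2, Cox7a1, Atp5l and Atp5s could not be placed above or below their starting level with TMM scaling. The intervals of Cox4i2, Cox7a1 and Atp5s crossed 100% at 2 and 4 h as well. That of Atp5l lay above 100% at 2 h (104 to 286%) and at 4 h (106 to 273%).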
